A study of Mus musculus with 10 samples.

Results

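The heat shock chaperone genes followed here in mouse liver were 4: Hspd1 and Hspe1, whose proteins fold other proteins inside mitochondria, and Hsp90aa1 and Hspa8, whose proteins work in the cytosol. They were chosen because, in an earlier look at these same data, the mitochondrial genes were higher and the cytosolic genes lower in Gyk heterozygous than in wildtype liver. The difference between the groups therefore chose them, and for these genes it is given below as a description without a test. Their probes were found by the gene number inside the probe identifier, which gave 7 probes for the 4 genes, of 7409 genes named in this way and of 24048 probes on the array. Of the 7 probes 5 passed the detection filter: 1 for Hspd1, 1 for Hspe1, 1 for Hsp90aa1 and 2 for Hspa8. The other 2 probes, both for Hsp90aa1, were detected on 0 of 10 arrays, with intensities from -41.8 to 10.1, and gave no information on the gene.

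The study measured RNA from the livers of 10 female mice aged 23 weeks on Illumina bead arrays, 1 array per mouse. One group was 5 mice heterozygous for Gyk, the X-linked gene of glycerol kinase, and the other was 5 wildtype C57Bl/6J mice. All 10 mice ate chow with 4% fat until 11 weeks of age and chow with 6% fat from then on. The labels do not describe the altered Gyk allele; since X inactivation leaves each female cell with 1 active X, some liver cells of a heterozygous mouse use the intact copy and others the altered one.

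The chaperones named here belong to machines that differ in build and place. Hspd1 (HSP60) forms a ring-shaped chamber in the mitochondrial matrix in which newly imported proteins fold, and Hspe1 (HSP10) is the lid of that chamber. Hspa8 (HSC70) is the constitutive HSP70 of the cytosol, which holds unfolded chains, uncoats clathrin vesicles and feeds proteins to lysosomes, and Hsp90aa1 is the stress-inducible HSP90, which matures kinases and steroid receptors handed over by HSP70. Genes of the cytosolic machine are classic targets of the heat shock factor Hsf1, and Hspd1 and Hspe1 lie head to head and share a promoter region, which in human cells responds to heat shock.

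That shared region is shown because both mitochondrial genes start from it. The RefSeq promoter table (build GRCm38.p6) held windows for 2 of the 4 genes, Hspd1 and Hspe1, and none for Hsp90aa1 or Hspa8. The 250 bases before the start of Hspe1, on the plus strand at chr1:55087898-55088147, are printed with matches to the heat shock element in capitals.
Hspe1 promoter: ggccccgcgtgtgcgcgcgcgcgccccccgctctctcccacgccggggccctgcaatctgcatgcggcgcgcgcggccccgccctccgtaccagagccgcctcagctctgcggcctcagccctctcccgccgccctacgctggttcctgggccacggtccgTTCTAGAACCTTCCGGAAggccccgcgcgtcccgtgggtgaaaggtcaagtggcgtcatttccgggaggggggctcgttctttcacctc
The motifs searched on both strands were TTCNNGAA and GAANNTTC, each its own reverse complement, and a longer form in which the blocks TTC and GAA alternate with 2 bases between them, 3 blocks in all, which contains a short form of each kind. The capitals are a run of 18 bases in which the short and the long forms overlap, at chr1:55088059-55088076, and it begins 89 bases before the Hspe1 start. The same 18 bases, read from the minus strand, begin 144 bases before 1 of the 2 Hspd1 starts in the table, while the window of the other Hspd1 start held neither motif. A short form was present in 15.1% and a long form in 0.603% of all 32851 promoter windows of 300 bases. A match of letters is a description, not a site shown to be bound.

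Before the chaperones, the altered gene itself was read. The detected Gyk probe averaged 319.7 ± 90.1 in heterozygous and 559 ± 209 in wildtype liver (SD, n = 5 each), and its log2 change was -0.65 (SE 0.19, limma adjusted p = 0.331). Its wildtype intensities were 914.2 in replicate 1 and 416.3 to 579.7 in the others. They overlapped the heterozygous range of 234.7 to 432.9. Whether that probe covers the altered part is not stated in the labels. The hepatocyte gene with a probe, Apoa1, which codes for the main protein of high-density lipoprotein, was bright on all 10 arrays, while markers of bile duct (Krt19) and of pancreas and gut (Prss1) were detected on 0 arrays. Of the Kupffer cell markers 3 of 6 were kept, with log2 changes of 0.12 for C1qa, 0.36 for C1qb and 0.41 for Csf1r, and their summed intensity was 1196 to 2401 in heterozygous and 986 to 2573 in wildtype livers. Of the erythroid markers 2 of 3 were kept, with log2 changes of -0.33 for Hba-a1 and -0.31 for Hbb-b1 and sums of 7172 to 12740 in heterozygous and 7893 to 31945 in wildtype livers. The summed ranges of both lists overlapped between the groups, and their part in the chaperone values was not tested. Heterozygous replicate 1 and wildtype replicate 1 stood apart from the other 8 arrays: on the first principal component they lay at -36.5 and -39.3, against -7.32 to 22.1 for the rest. The sample titles start with a number, whose meaning the labels do not give. It was 1 in heterozygous replicates 1 to 3 and wildtype replicate 1, 2 in heterozygous replicates 4 and 5 and wildtype replicate 2, and 7 in wildtype replicates 3 to 5 alone. Results for the chaperones are therefore given with and without these samples.

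Hspd1 was higher on average in heterozygous liver, and every heterozygous liver lay above 4 of the 5 wildtype livers. Its intensities were 3484, 2996.7, 3136.9, 2738.4 and 2989.4 in heterozygous replicates 1 to 5, against 3440.9, 2333.6, 2169.7, 2011.6 and 2055.3 in wildtype replicates 1 to 5. The exception among the wildtype livers was replicate 1, which lay among the heterozygous values. The mean was 3069 ± 273 in heterozygous and 2402 ± 594 in wildtype liver (SD, n = 5 each), a ratio of 1.28. On the normalized log2 scale the means were 11.64 ± 0.10 and 11.24 ± 0.26, a log2 change of 0.40 (SE 0.12). Here and below, log2 changes are heterozygous minus wildtype, after adding 95.2 to each intensity and quantile normalization. In bulk tissue, more RNA per cell and more cells of the type that makes it cannot be told apart.

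Hspe1, the lid of the HSP60 chamber, had the same arrangement of samples. Its intensities were 1143.8, 763.1, 923.7, 768.4 and 896.3 in heterozygous replicates 1 to 5, against 1092.8, 504.7, 646.6, 563.5 and 542 in wildtype replicates 1 to 5. Wildtype replicate 1 was again the only wildtype liver inside the heterozygous range, and replicate 1 was the highest sample of both groups. The mean was 899 ± 155 in heterozygous and 669.9 ± 242 in wildtype liver (SD, n = 5 each), a ratio of 1.34. The log2 change was 0.42 (SE 0.17), close in size to that of Hspd1. Without wildtype replicate 1 the groups of Hspd1 and of Hspe1 did not overlap, and their log2 changes were 0.51 and 0.57. With that liver left out, 10.7% of all 10238 kept probes had no overlap, and 5.71% had none with the heterozygous values on top. Without both replicates 1, the arrays that stood apart, the log2 changes of Hspd1 and Hspe1 were 0.47 and 0.49.

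Hsp90aa1, the inducible cytosolic HSP90, was the chaperone with the largest difference of the 4, and it was lower in heterozygous liver. Its intensities were 505.5, 452.2, 374.3, 334.9 and 408.5 in heterozygous replicates 1 to 5, against 585.8, 387, 940.7, 825.8 and 817 in wildtype replicates 1 to 5. The wildtype livers formed a high set of 3, replicates 3 to 5, and a low set of 2, of which replicate 2 lay inside the heterozygous range and replicate 1 above it. The mean was 415 ± 66.5 in heterozygous and 711 ± 222 in wildtype liver (SD, n = 5 each), a ratio of 0.584. The log2 means were 8.98 ± 0.17 and 9.60 ± 0.46, a log2 change of -0.62 (SE 0.20). Without both replicates 1 the log2 change was -0.73. The high set of 3 wildtype livers is the set whose titles start with 7.

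Hspa8, the constitutive cytosolic HSP70, was read by 2 bright probes. The brighter one had intensities of 17999.8, 16577.1, 18795.2, 18704.4 and 19058 in heterozygous replicates 1 to 5, against 23999.1, 21529.8, 20726.3, 23900.3 and 25474.3 in wildtype replicates 1 to 5. Every heterozygous value lay below every wildtype value, the only chaperone probe of the 5 for which the groups did not overlap. This was the contrast that chose the genes, and over all 10238 probes kept 1.78% had no overlap between the groups, 0.977% with the heterozygous and 0.801% with the wildtype values on top. The mean was 18227 ± 1002 in heterozygous and 23126 ± 1948 in wildtype liver (SD, n = 5 each), a ratio of 0.788. The log2 change was -0.21 (SE 0.07) after quantile normalization and -0.34 without any normalization. Quantile normalization gives all arrays the same set of values, and Apoa1, another very bright probe, had a log2 change of -0.01 after it and -0.20 without it.

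The second Hspa8 probe gave the same direction with overlap. Its intensities were 18406.7, 16064.5, 17028.3, 16909.2 and 16825.6 in heterozygous replicates 1 to 5, against 23838.3, 17488, 18962.1, 23615.8 and 24149.5 in wildtype replicates 1 to 5. Of the wildtype livers only replicate 2 lay inside the heterozygous range, and replicate 3 lay just above it. The ratio of means was 0.789, equal to that of the brighter probe to 2 decimals, and the log2 change was -0.17 (SE 0.10). Without both replicates 1 the log2 change was -0.23 for the brighter probe and -0.19 for this one. Within groups the 2 Hspa8 probes had a correlation of 0.586 over 10 arrays, and 0.850 over the 8 arrays without both replicates 1. The Hspa8 gene has many near-identical processed copies in the mouse genome and close relatives in the HSP70 family, and probe sequences were not used here, so their share of the signal is unknown.

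**Figure D1:**
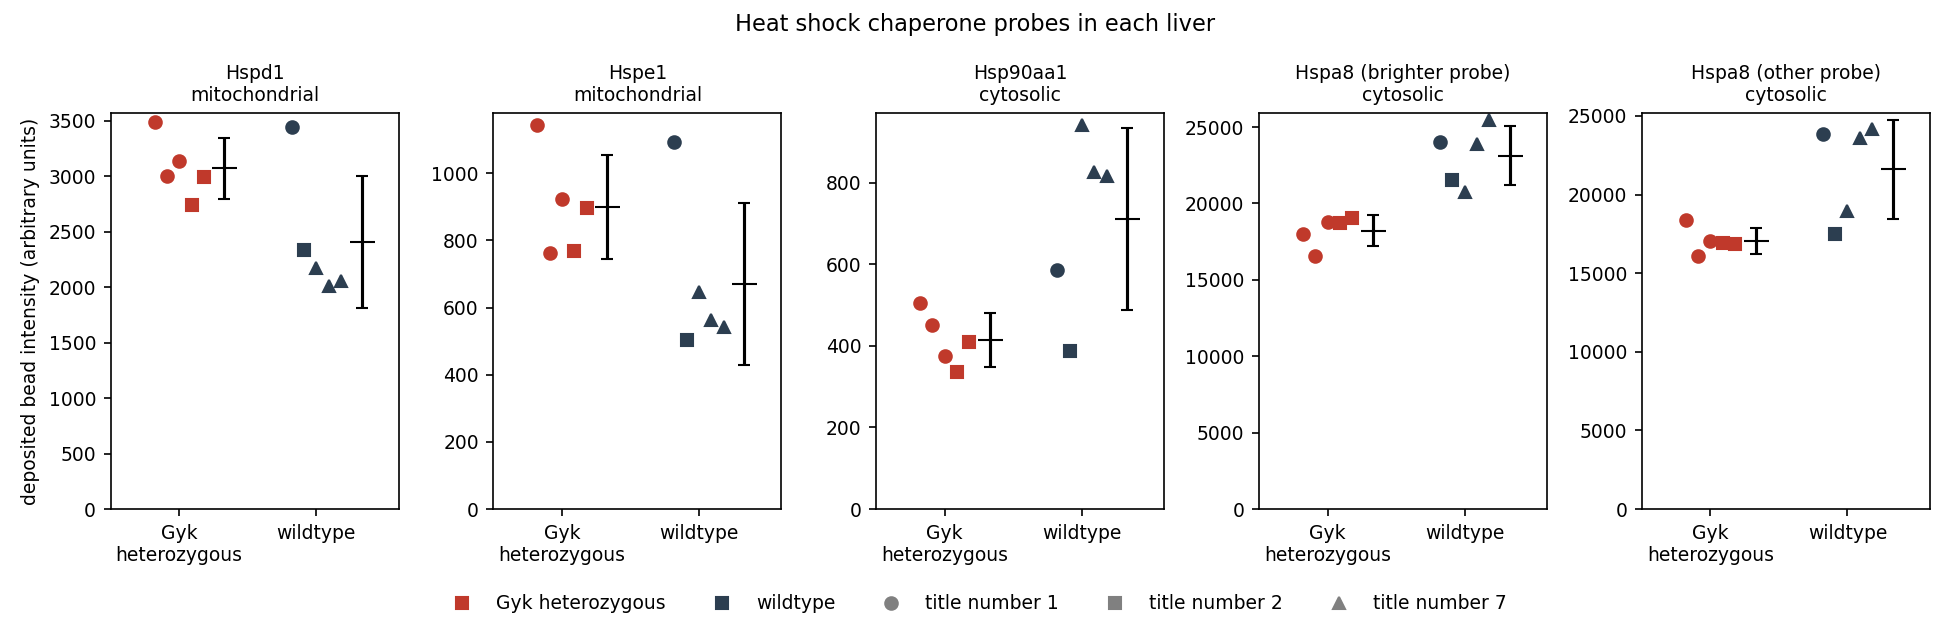
Deposited bead intensity (vertical axes, arbitrary units, each starting at 0) of the 5 detected chaperone probes in every liver, with 5 Gyk heterozygous livers left of 5 wildtype livers in each panel; the marker shape gives the leading number of the sample title and the black bars the mean and SD. Hspd1 and Hspe1 are lower in 4 of 5 wildtype livers than in any heterozygous liver, and the 3 highest Hsp90aa1 values, 817 to 940.7, belong to the wildtype livers of title number 7.

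Set among all probes, the sizes of the 4 differences ranged from rare to common. A log2 change at least as large in size as that of Hsp90aa1 was measured for 0.996% of the 10238 kept probes, as large as that of Hspe1 for 4.11%, as that of Hspd1 for 4.83% and as that of the brighter Hspa8 probe for 23.0%. With limma's moderated test over all kept probes, 0.0% passed an adjusted p under 0.05 and 11.9% had an unadjusted p under 0.05 (1223 probes). Of the 1223 probes 60.8% were higher in heterozygous liver, against 44.1% of 1294 without any normalization. Nothing is read from these shares about the chaperones, which were chosen on this contrast.

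The wildtype livers differed among themselves by the leading number of the title. Wildtype livers of number 7 minus those of numbers 1 and 2 differed on the log2 scale by -0.34 for Hspd1, -0.28 for Hspe1, 0.78 for Hsp90aa1 and 0.15 for the brighter Hspa8 probe (3 against 2 livers, not tested). Of the 2 livers replicate 1 is one of the arrays that stood apart, and against replicate 2 alone the values were -0.10 for Hspd1, 0.18 for Hspe1, 0.99 for Hsp90aa1 and 0.14 for the brighter Hspa8 probe. For Hspe1 the sign thus turned without replicate 1. Heterozygous livers minus wildtype livers of number 7 alone differed by 0.53 for both Hspd1 and Hspe1, by -0.93 for Hsp90aa1 and by -0.26 for Hspa8. Among livers of numbers 1 and 2 alone, 5 heterozygous and 2 wildtype, the log2 changes were 0.20 for Hspd1, 0.25 for Hspe1, -0.15 for Hsp90aa1, -0.12 for the brighter and -0.04 for the other Hspa8 probe. The signs stayed, and the sizes were smaller than with all 10 livers.

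Taken number by number the picture was less even. Within number 1, heterozygous minus the single wildtype liver gave 0.02 for Hspd1, -0.15 for Hspe1, -0.29 for Hsp90aa1, -0.13 for the brighter and -0.19 for the other Hspa8 probe. Within number 2 the values were 0.34 for Hspd1, 0.62 for Hspe1, -0.06 for Hsp90aa1, -0.09 for the brighter and 0.11 for the other Hspa8 probe, so the sign of the last turned. The mitochondrial pair thus differed in number 2 and hardly or in the other direction in number 1, while Hsp90aa1 differed mostly against number 7. The single wildtype liver of number 1 is replicate 1, one of the arrays that stood apart. Since no heterozygous liver has the number 7, what that number stands for and the genotype cannot be told apart in those 3 livers.

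**Figure D2:**
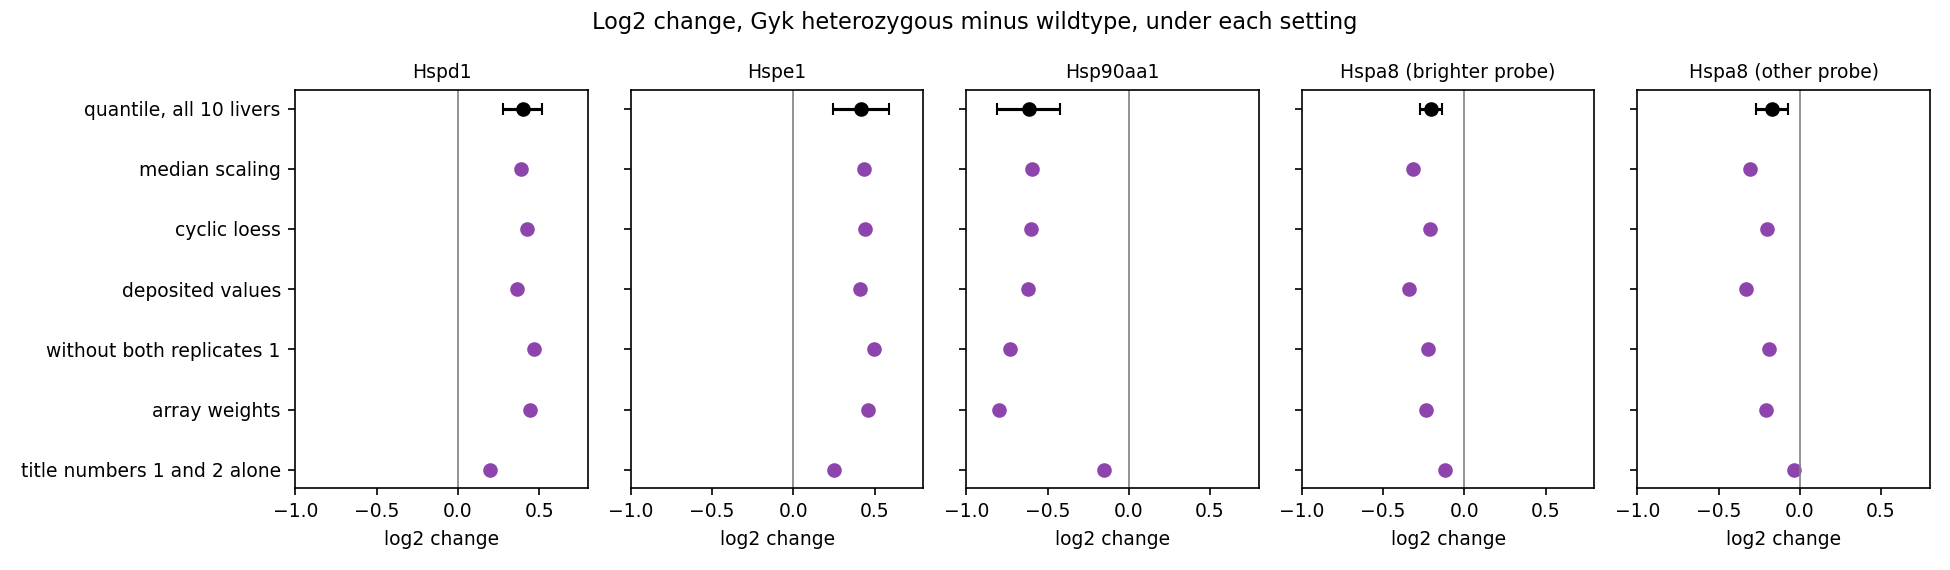
Log2 change, Gyk heterozygous minus wildtype (horizontal axes), of the 5 detected chaperone probes under 7 settings listed down the page; bars on the black points are the SE of the limma fit with quantile normalization. All points keep the sign of the top row, and of the 7 settings plotted those for the livers of title numbers 1 and 2 alone lie nearest to 0, at 0.20 for Hspd1 and -0.15 for Hsp90aa1.

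The spread inside the groups was not used to choose the genes. It was widest for Hsp90aa1, with a within-group SD of 0.35 on the log2 scale, wider than that of 87.5% of kept probes. Hspe1 had 0.30, wider than 82.2%, and Hspd1 had 0.20, wider than 57.4%. The brighter Hspa8 probe had 0.07, wider than only 1.12% of kept probes, and the other Hspa8 probe 0.15, wider than 32.6%. These SDs are of quantile normalized values, and their ranks without normalization were not computed. The coefficient of variation of the deposited intensities of the brighter Hspa8 probe was 5.50% in heterozygous and 8.42% in wildtype liver. For the linear intensities, the coefficient of variation of Hspe1 was 17.2% in heterozygous and 36.1% in wildtype liver, and that of Hspd1 was 8.89% in heterozygous and 24.7% in wildtype liver. Each of the 5 probes varied more among wildtype than among heterozygous livers, a difference that was not tested. How many of all kept probes did so was not counted. Wildtype livers carry title numbers 1, 2 and 7, heterozygous livers only 1 and 2. Wildtype Hsp90aa1 had a log2 mean of 9.91 in number 7, against 9.35 and 8.92 in numbers 1 and 2. Wildtype replicate 1, an array that stood apart, had 11.68 for Hspd1 and 10.16 for Hspe1. The other wildtype livers had 11.03 to 11.24 and 9.24 to 9.57.

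Whether the partners vary together from mouse to mouse was tested on the deviations of each liver from its group mean, for the 6 pairs of the 4 genes. Hspd1 and Hspe1 had the highest correlation, Pearson's r = 0.894 and Spearman's rho = 0.612 over 10 livers. The permutation p, two-sided and shuffled within groups, was 0.0116 for r and 0.0871 for rho, and the p for r adjusted over the 6 pairs was 0.0698, so the pair did not pass with all 10 livers. Leaving out single livers gave adjusted exact permutation p from 0.0354, without wildtype replicate 2 (r = 0.946), to 0.293, without wildtype replicate 1 (r = 0.627). Without the 2 livers farthest from the median of Hspd1, wildtype replicates 1 and 4, r was 0.714. Without both replicates 1, the arrays that stood apart, r was 0.311 (exact permutation p = 0.559, 8 livers), so the relation rested on those arrays. Across 10 livers 181 other kept probes followed Hspd1 more closely than Hspe1 did, and without both replicates 1 this was true of 2752 probes.

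The cytosolic partners gave no clearer relation. Hsp90aa1 and Hspa8 had r = 0.601 and rho = 0.624 (permutation p = 0.205 and 0.161, adjusted p for r = 0.411), and r = 0.600 without both replicates 1. Without the 2 livers farthest from the median of Hsp90aa1 r was 0.449. Without any normalization r was 0.02. Across the compartments Hspd1 and Hspa8 had r = -0.702 and rho = -0.721, with permutation p = 0.0757 and 0.0365 and an adjusted p for r of 0.227. Without the 2 livers farthest from the median of Hspd1 that r was -0.624, and without any normalization it was 0.03. The other 3 pairs had r between -0.476 and 0.06. Without both replicates 1, r was -0.641 for Hspd1 and Hspa8, 0.582 for Hspe1 and Hsp90aa1, 0.02 for Hspe1 and Hspa8 and -0.104 for Hspd1 and Hsp90aa1. With deviations taken from title number as well as group, r was 0.896 for Hspd1 and Hspe1 and 0.826 for Hspd1 and Hsp90aa1 (adjusted exact permutation p = 0.167 for both). Shuffling within group and title number allowed only 72 arrangements, too few for a lone pair to pass after adjustment. Nothing is therefore read from that p. The shuffles also left in place wildtype replicates 1 and 2, each the only wildtype liver of its number. Both replicates 1, the arrays that stood apart, are among the livers behind these r. With the same deviations r was 0.602 for Hspe1 and Hsp90aa1, -0.149 for Hsp90aa1 and Hspa8, -0.03 for Hspd1 and Hspa8 and -0.06 for Hspe1 and Hspa8. Most of these correlations thus changed widely in size or sign with the arrays and the deviations used. With all 10 livers and deviations from group means alone, no pair passed after adjustment, inside or across the compartments.

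**Figure D3:**
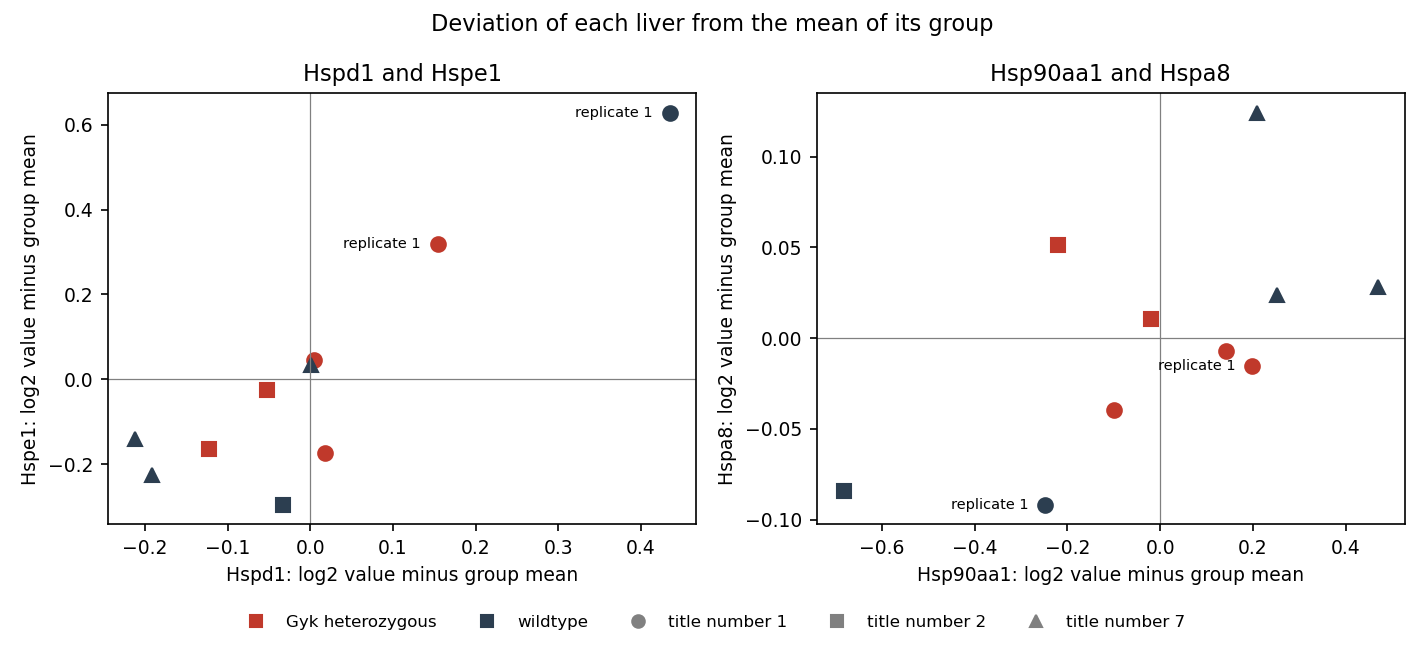
Each liver's log2 value minus the mean of its group, for Hspe1 against Hspd1 on the left and Hspa8 (brighter probe) against Hsp90aa1 on the right; color gives the group and marker shape the title number. On the left both replicates 1 lie in the upper right, away from the other 8 livers, for which r was 0.311.

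The named genes whose within-group pattern was most like that of a chaperone are given as a description over 10 arrays that share 2 outlying arrays. For Hspd1 they were Imp3, of the small nucleolar machine that processes ribosomal RNA (r = 0.973), Sypl (0.964) and Tomm7, a small subunit of the channel through which proteins enter mitochondria (0.964). For Hspe1 they were Ints5 (0.952), the proteasome ubiquitin receptor Adrm1 (0.952) and Ywhaq, a 14-3-3 protein (0.950). Over the 8 arrays without both replicates 1 these were 0.895, 0.892 and 0.870 for Hspd1 and 0.720, 0.600 and 0.532 for Hspe1. For Hsp90aa1 they were the cohesin subunit Smc3 (0.975), U2surp (0.930) and the ubiquitin ligase Trim25 (0.923). For Hspa8 they were Fam133b (0.901), the neutrophil growth factor receptor Csf3r (0.897) and a probe whose number names the renin gene Ren2 (0.897). Whether that probe reads Ren2 in these mice was not checked. Over the 8 arrays these were 0.975, 0.959 and 0.925 for Hsp90aa1 and 0.886, 0.897 and 0.916 for Hspa8. Removing group means leaves in the difference among wildtype livers by title number, 0.78 for Hsp90aa1. Its part in these values was not tested.

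The rest of the protein-folding network was read from 8 lists with 124 genes besides the 4, of which 45 had a named probe and 37 a probe kept by the filter. Of these 37 genes 15 had a log2 change above 0 and 22 below, with a median of -0.06, against 46.5% above 0 and a median of -0.01 over all kept probes. None passed limma's adjusted p of 0.05, as for all probes, and 5 of 37 (13.5%) had an unadjusted p under 0.05, against 11.9% of all kept probes. Of the 5, 2 were higher and 3 lower, while over all kept probes 7.26% were called higher and 4.69% lower. Groups did not overlap for 1 of 37 genes (2.70%), against 1.78% of all kept probes. With the title number in the fit 12 of the 37 genes had the other sign (32.4%), as did 32.7% of all kept probes. Of the genes named below these were Hspa9 (-0.11), Timm8b (-0.04), St13 (0.12), Hsf2 (0.0039) and Xbp1 (-0.04). Taken without direction, the shares of the network were near those of the array as a whole. By direction the 5 called genes leaned lower and the called probes of the array higher, a difference that was not tested.

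Of the other chaperones and proteases of mitochondria few could be read. Of 18 listed genes 3 were kept, 1 with a log2 change above 0 and 2 below, with a median of -0.06. Hspa9, the mitochondrial HSP70 that pulls proteins through the inner membrane, averaged 1734 ± 277 in heterozygous and 1688 ± 496 in wildtype liver (SD, n = 5 each), and its log2 change was 0.11 (SE 0.18). Dnaja3, a J-domain partner of Hspa9, had 3170 ± 235 in heterozygous and 4122 ± 525 in wildtype liver, and its log2 change was -0.31 (SE 0.11, limma adjusted p = 0.339). Grpel2, which resets Hspa9 for a new cycle, had a log2 change of -0.06 (SE 0.27).

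The machinery that imports the clients of HSP60 lay on both sides of 0, with 5 of 9 kept genes above, 4 below and a median of 0.08. The small intermembrane-space chaperones Timm9 and Timm8b had log2 changes of -0.28 (SE 0.12) and 0.41 (SE 0.20). Pmpca, a subunit of the peptidase that cuts off the targeting sequence of imported proteins, had -0.18. Tomm70a, the outer-membrane receptor on which cytosolic HSP70 and HSP90 dock, had 0.14 with intensities of 61.2 ± 18.6 in heterozygous and 50.6 ± 20.2 in wildtype liver (SD, n = 5 each). The limma adjusted p of these 4 genes was 0.386 to 0.607.

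Among partners of cytosolic HSP90, 2 of 8 kept genes had a log2 change above 0 and 6 below, with a median of -0.03. Hsp90ab1, the constitutive sister of Hsp90aa1, chosen for mention after its values were seen, averaged 8187 ± 695 in heterozygous and 8827 ± 455 in wildtype liver (SD, n = 5 each), and its log2 change was -0.03 (SE 0.07). These values are of its brightest probe, and 2 other kept probes of the gene had 0.16 and 0.12, with the other sign. The largest value was that of Uri1, a prefoldin-like partner of HSP90 complexes, at 260.3 ± 38.4 in heterozygous and 144 ± 31.1 in wildtype liver (SD, n = 5 each). Its log2 change was 0.56 (SE 0.11) and its limma adjusted p was 0.331, or 0.0343 without wildtype replicate 1. Leaving out that liver brought 435 of the 10238 kept probes past limma's threshold. Without both replicates 1 the limma adjusted p of Uri1 was 0.0418. Fkbp4, an immunophilin that rides with HSP90 on steroid receptors, had -0.21, the co-chaperone Chordc1 -0.13 and Cacybp 0.16.

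Among cytosolic HSP70 partners 1 of 3 kept genes was above 0 and 2 below, with a median of -0.06. Dnajb2, a J-domain protein that hands clients to degradation, had 1252 ± 133 in heterozygous and 1637 ± 169 in wildtype liver (SD, n = 5 each), and its log2 change was -0.32 (SE 0.09). Its limma adjusted p was 0.331, or 0.0309 without wildtype replicate 1. Leaving out that liver brought 435 of the 10238 kept probes past limma's threshold, so Dnajb2 was 1 of many. Without both replicates 1 Dnajb2 did not pass. Dnajb6 had 0.09 and St13, which steadies the HSP70 cycle, -0.06. The inducible genes Hspa1a and Hspa1b were not among the kept named probes.

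The heat shock factors and small heat shock proteins all had values below 0, 3 of 3 kept genes with a median of -0.20. Hsf1, the main heat shock transcription factor, had 1192 ± 96.8 in heterozygous and 1427 ± 169 in wildtype liver (SD, n = 5 each), and its log2 change was -0.20 (SE 0.09). Hsf2 had -0.19, and Hspb1, which keeps unfolding proteins soluble, -0.24. Their limma adjusted p was 0.423 to 0.653, and Hsf2 was dim, with 46.1 ± 23.3 in heterozygous and 69.0 ± 21.2 in wildtype liver (SD, n = 5 each).

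The cytosolic chaperonin TRiC, which folds actin and tubulin and resembles HSP60 in shape, and prefoldin, which delivers to it, were split 3 above and 3 below 0 among 6 kept genes, with a median of -0.06. Cct4 had -0.21, Pfdn2 -0.16, Pfdn4 0.13 and Vbp1 0.05. In the endoplasmic reticulum 1 of 3 kept genes was above 0. Hspa5, the HSP70 of that compartment, had a dim probe with 83.0 ± 24.3 in heterozygous and 56.5 ± 20.4 in wildtype liver (SD, n = 5 each), and its log2 change was 0.26 (SE 0.09, limma adjusted p = 0.339). Dnajb9 had -0.08.

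Serpinh1, the collagen chaperone of the endoplasmic reticulum, had 337 ± 48.6 in heterozygous and 473 ± 136 in wildtype liver (SD, n = 5 each), and its log2 change was -0.37 (SE 0.19). Its limma adjusted p was 0.466, or 0.0283 without wildtype replicate 1, when 435 of the 10238 kept probes passed. Without both replicates 1 the limma adjusted p of Serpinh1 was 0.0478. Collagen is made in liver mainly by stellate cells. Of 5 stellate cell markers 4 had a probe and 3 were kept, with log2 changes of 0.15 for Lrat, -0.30 for Dcn and -0.24 for Reln, and Col1a1 was detected on 3 arrays. Their summed intensity was 11428 to 13325 in heterozygous and 12240 to 18182 in wildtype livers, and its part in the Serpinh1 value was not tested. Of the genes that report stress in the endoplasmic reticulum or mitochondria, 2 of 12 were kept: Xbp1 had a log2 change of 0.17 and Gdf15, a secreted signal of mitochondrial stress, 0.19, with limma adjusted p of 0.751 and 0.785.

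**Figure D4:**
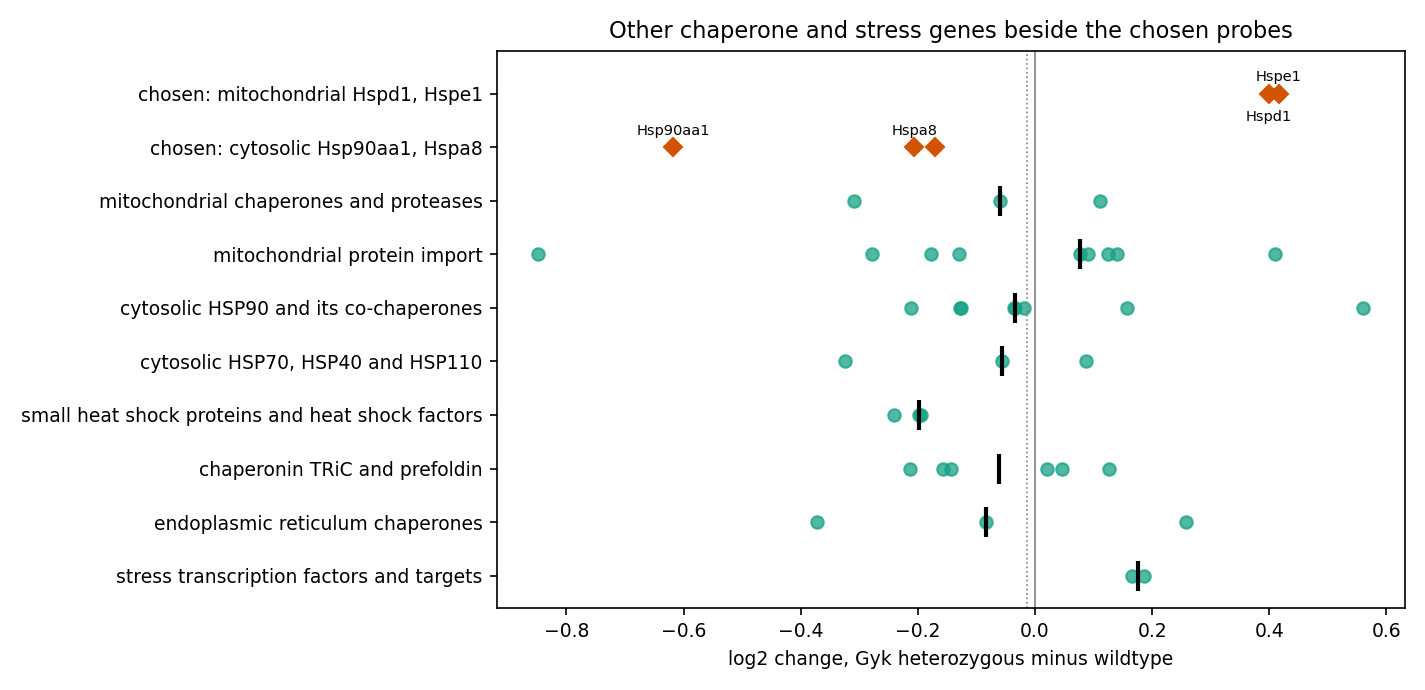
Log2 change, Gyk heterozygous minus wildtype (horizontal axis), of the chosen chaperone probes (diamonds) and of each kept gene of 8 lists (circles), with black bars at the median of a list and a dotted line at the median of all kept probes, -0.01. The diamonds stand where they do by choice of the genes, and the list medians lie between -0.20 and 0.18.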

How the data were processed

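Liver RNA of 5 Gyk heterozygous and 5 wildtype mice was amplified, labelled with biotin and hybridized to bead arrays of Illumina (per the labels). The deposited values are linear bead intensity after background subtraction, 1 per probe and array, made by the authors with BeadStudio 1.5.1.3 per the submitters' processing notes. Whether the arrays were normalized to each other is not given in the sources used here. Median intensity was 14 to 24 per array, and 9991 to 10876 probes per array were detected; the number of arrays limits the precision. A second table has 80 columns named by chip and position, and no label ties them to samples, so they were not used.

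A constant of 95.2 was added so that the lowest value was 16, and log2 values were then quantile normalized (limma 3.58.1, R 4.3.3). The constant pulls log2 changes of dim probes toward 0. A probe was detected above 1.64 times the root mean square of its array's values below 0, and the 10238 probes detected on at least 5 of 10 arrays were kept. The number in a probe's identifier was matched to gene identifiers of RefSeq for assembly GRCm38.p6. That it is a gene identifier is inferred: 93.3% of 9523 probes matched, against 48.6% with the number raised by 1. This named 8884 probes, and 15164 stayed unnamed.

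Groups were compared over all kept probes with limma (lmFit and eBayes, two-sided, Benjamini-Hochberg, threshold 0.05). The fit was also run on simulated arrays with independent normal values per probe. Those held no outlying arrays, so they do not show how far the calls hold in these data. The mice are separate per the design text. Correlations used deviations from group means, with 100000 permutations within groups in NumPy 2.4.6, or every arrangement below 10 samples. Other settings were the lowest value, median scaling, cyclic loess, no normalization, the filter, array weights, samples left out and the title number as a block; the livers of title numbers 1 and 2 alone were added after seeing the data. Named were the 4 chosen genes, Gyk, up to 4 genes per list with the smallest p, and the 3 genes most like each chosen gene. Genes and lists were chosen with earlier results of these data known. For a gene with several probes in a list, the brightest was used.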

Additional observations from a re-analysis of the deposited data

How the results depend on the processing

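The log2 changes of the 5 detected chaperone probes kept their sign in all 18 alternatives run for each, within 0.17 to 0.51 for Hspd1, 0.21 to 0.57 for Hspe1, -0.80 to -0.15 for Hsp90aa1, -0.34 to -0.11 for the brighter and -0.33 to -0.04 for the other Hspa8 probe. This contrast chose the genes and the alternatives reuse the same arrays, so the constant sign is no separate support. Within single title numbers the sign turned for Hspe1 (-0.15 in number 1) and the other Hspa8 probe (0.11 in number 2). A change of more than the within-group SD came with the title number as replicate block (Hspd1 0.17, Hsp90aa1 -0.18, brighter Hspa8 probe -0.11), among title numbers 1 and 2 alone (0.20, -0.15 and -0.12), with median scaling (brighter Hspa8 probe -0.31) and without normalization (brighter Hspa8 probe -0.34, other probe -0.33). Deviations of samples with the same title number correlated at 0.657 for number 1 and 0.526 for number 2 across probes, but with only 2 shared numbers this does not show that the numbers pair the mice. Number 1 also holds both replicates 1, the arrays that stood apart. Heterozygous livers hold only numbers 1 and 2, so their deviations from the group mean for number 2 mirror those for number 1. The 2 correlations are therefore not separate, and in both the title number and the arrays that stood apart cannot be told apart.

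Without single livers the probes past the threshold numbered 0 to 435, the highest without wildtype replicate 1 and 0 without each other liver. They numbered 206 without both replicates 1 and 410 with array weights, and 0 under every other setting. At an unadjusted p under 0.05 there were 748 to 2356 without single livers (748 and 762 without wildtype replicates 4 and 5), 507 with the title number as replicate block, 352 for title numbers 1 and 2 alone, 2119 without both replicates 1, 2345 with array weights and 1911 with no filter. Of the listed genes, 0 to 3 passed without single livers (Uri1, Dnajb2 and Serpinh1 without wildtype replicate 1), 2 without both replicates 1 (Uri1 and Serpinh1) and 2 with array weights (Uri1 and Dnajb2). Listed genes higher at an unadjusted p under 0.05 numbered 2 to 4 without single livers, 4 without both replicates 1, and 1 without normalization or title numbers 1 and 2 alone. Those lower numbered 2 to 6 without single livers, 5 with median scaling, 6 without normalization, 0 with the title number as replicate block, 7 without both replicates 1, 8 with array weights and 1 for title numbers 1 and 2 alone. The within-group r of Hspd1 and Hspe1 was 0.627 to 0.946 without single livers, with adjusted permutation p from 0.0354 (without wildtype replicate 2) to 0.293. The cause of these shifts was not tested.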
